A study of Mus musculus with 8 samples.

Results

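The genes described here encode proteins of the mitochondrial ribosome, and were taken as every gene symbol that starts with Mrpl or Mrps followed by a number. This rule found 76 of the 29955 gene names measured, 47 Mrpl genes and 29 Mrps genes. The symbol does not always give the subunit: by structure the proteins of Mrps18a and Mrps30 sit in the large subunit, and the protein of Mrps36 belongs to the oxoglutarate dehydrogenase complex, so that 49 members count as large-subunit and 26 as small-subunit genes. The 76 genes lie on 17 chromosomes of the reference, with 0 on X or Y.

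RNA was sequenced from 2 sorted bone marrow populations of wild-type (WT) mice and of mice without Ripk3 (Ripk3-KO), the kinase that triggers necroptosis through Mlkl. LSK cells (Lin- Sca1+ Kit+) hold the hematopoietic stem cells and early multipotent progenitors, and LK cells (Lin- Sca1- Kit+) are mostly committed myeloid progenitors. Each of the 4 groups, WT LSK, Ripk3-KO LSK, WT LK and Ripk3-KO LK, has 2 libraries, all on the background written CD57BL6/J in the labels, with no age, sex or pooling given. The labels name no treatment, while the study's methods have WT and Ripk3-KO mice given repeated low-dose X-irradiation before collection, which all 4 groups would then share.

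Mitochondria carry their own ribosomes, which make the few membrane proteins of oxidative phosphorylation (OXPHOS) that are still encoded by mitochondrial DNA. All of their proteins are encoded in the nucleus and imported, so that their genes must be matched to ribosomal RNA made inside the organelle. They are a separate set from the cytosolic ribosomal protein genes (Rpl and Rps), whose mRNAs carry a pyrimidine-rich start, the TOP motif, that ties their translation to growth signals. Blood stem cells are known for low protein synthesis and low mitochondrial activity, and progenitors for higher rates of both.

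The files hold reads per gene scaled to library size (CPM), not corrected for gene length. Libraries held from 9782166 to 16280811 reads. Ripk3 stood at 162 and 168 scaled CPM in the WT LSK libraries against 3.38 and 1.08 in Ripk3-KO, and at 144 and 150 in WT LK against 16.2 and 10.6 in Ripk3-KO. Xist stood at 108 to 413 in the WT libraries and at 0 to 1.27 in the Ripk3-KO libraries, while the Y-linked Uty was listed at 0 in WT and stood at 16.8 to 31.6 in Ripk3-KO, so that genotype and sex cannot be told apart. All 8 LSK markers (Ly6a among them) were higher and all 8 LK markers (Mpo among them) lower in LSK than in LK cells of both genotypes by limma with adjusted p under 0.05. Of 11 markers of lineage-positive cells, 10 were in the files, and their summed level was 614 to 687 jointly scaled CPM in WT LSK, 1949 to 2318 in Ripk3-KO LSK, 860 to 889 in WT LK and 1865 to 1872 in Ripk3-KO LK. Of those tested, 5 of 10 rose in Ripk3-KO LSK and 4 of 8 in Ripk3-KO LK cells. The neutrophil genes S100a8, S100a9, Ngp, Ltf and Camp gave most of that sum, while the T-cell gene Cd3e was at most 3.87 scaled CPM in any library. This sum and the sex of the mice move with every genotype difference below, and their part in it was not tested.

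RefSeq promoters (GRCm38.p6, 250 bases before to 50 after the start) were found for 67 of the 76 members and searched on both strands for the core motifs of factors known for nuclear mitochondrial genes. The NRF1 motif, a GCGC, an A and any base, then a GCGC again, was in 12 members (17.9%) against 5.19% of 27025 genes. The ETS motif CCGGAAG, as bound by GABPA, was in 24 (35.8%) against 9.93%, and the YY1 motif AAGATGGCG in 8 (11.9%) against 1.64%. None of these motifs contains another, and at least one was in 39 members (58.2%) against 15.1% of all genes. The cytosolic ribosomal protein genes (56 with a promoter) and the nuclear OXPHOS subunit genes (66) were close to the members in the share with any of the 3, at 53.6% and 51.5%. By motif, NRF1 was in 8.93% and 25.8% of these lists, ETS in 41.1% and 24.2%, and YY1 in 5.36% and 10.6%. A TATAAA was in 5 members (7.46%), in 10.7% of the cytosolic list and in 15.7% of all genes. A TOP-like start, here a C at the first base followed by 4 pyrimidines, was at the start of 0 of 67 members, of 14 of 56 cytosolic ribosomal protein genes (25%) and of 3.01% of all genes. This search needs the exact first base, and it missed most of the cytosolic list, whose mRNAs are known for this motif. The 0 of 67 therefore does not show that members lack such a start. A match is a description of letters in the window, not a shown binding site.

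Printed here, as examples of the motifs, are the 120 bases upstream of the start of 4 members, 5′ to 3′ on the gene's strand. Each whole match to the NRF1, ETS or YY1 motif is in capitals. Mrpl12 (chr11:120484517-120484636, + strand) holds an NRF1 match on the opposite strand and Mrps22 (chr9:98601680-98601799, - strand) an ETS match on the printed strand. Mrpl36 (chr13:73330889-73331008, + strand) holds a YY1 match on the opposite strand. All 3 are among the members called lower in LSK than in LK cells in both genotypes. Of the others so called, Mrpl18, Mrpl37 and Mrpl48 hold a match in the searched window and Mrpl41 holds none. Whether a match goes with the lower level was not tested. Mrpl33 (chr5:31613831-31613950, + strand) is the better measured of the 2 members called by genotype in LSK cells under the main settings. Its ETS match runs across the start site, beyond the stretch shown.
Mrpl12: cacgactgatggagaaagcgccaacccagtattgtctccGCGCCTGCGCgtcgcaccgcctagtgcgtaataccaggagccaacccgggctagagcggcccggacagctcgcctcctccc
Mrps22: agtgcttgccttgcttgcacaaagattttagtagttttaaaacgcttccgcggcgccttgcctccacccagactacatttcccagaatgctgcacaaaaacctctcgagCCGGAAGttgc
Mrpl36: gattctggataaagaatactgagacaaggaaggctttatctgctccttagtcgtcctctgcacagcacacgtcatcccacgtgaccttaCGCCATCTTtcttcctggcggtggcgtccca
Mrpl33: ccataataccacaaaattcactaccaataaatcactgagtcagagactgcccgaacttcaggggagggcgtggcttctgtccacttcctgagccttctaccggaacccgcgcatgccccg

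Other features of the loci were shared as well. A coding gene on the opposite strand starts head-to-head within 1000 bases of 17 members (22.4%), against 6.79% of 21951 coding genes and 11.7% of the cytosolic ribosomal protein genes. Exonic bases were shared with another coding gene by 17 members, and over 20% of them by 6 (Mrpl13, Mrpl19, Mrpl24, Mrpl43, Mrps25 and Mrps6), whose counts could hold reads of the partner. A near-identical pseudogene transcript was found for 24 members, and 8 of them for Mrps36 alone, so that counts of these genes depend on how repeated matches were treated.

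Levels within the set were compared as jointly scaled CPM per kilobase of the longest coding transcript. The median member stood at 56.6 and the middle members from 25.6 to 108 (quartiles), against a median of 379 for cytosolic ribosomal protein genes on the same scale. Mrpl42 was highest at 362 (277 to 489 over the 8 libraries), followed by Mrpl28 at 202 (146 to 276), Mrpl20 at 183 (136 to 257) and Mrpl18 at 178 (117 to 267), and the ranges of the last 3 overlap. Per kilobase of coding sequence Mrpl42 was rank 2, Mrpl18 rank 4, Mrpl20 rank 9 and Mrpl28 rank 10, so that the order below the top depends on the length used.

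At the low end the counts of the set were uneven. Mrps11 and Mrpl53 were listed at 0 in all 8 libraries, where 3 reads, the limit that a count of 0 allows, are worth 0.186 to 0.311 scaled CPM. Mrps2, a small-subunit protein with a bacterial counterpart, ranged from 0 to 0.458. Mrpl13, a large-subunit protein with a bacterial counterpart, was between 0.186 and 0.622 in 6 libraries and higher only in Ripk3-KO LSK, as given below. Mrpl51 (3.87 to 16.3) and Mrps34 (5.06 to 25.1) were below 10 in at least 1 library, and the other 70 members were above 10 in each library. The proteins of all 6 are parts of the same particle as those of the other members, apart from Mrps36. The gene annotation and counting tool are not given, and whether reads of these 6 genes were lost in counting was not tested. A low count here therefore need not mean a low level in the cells.

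**Figure D1:**
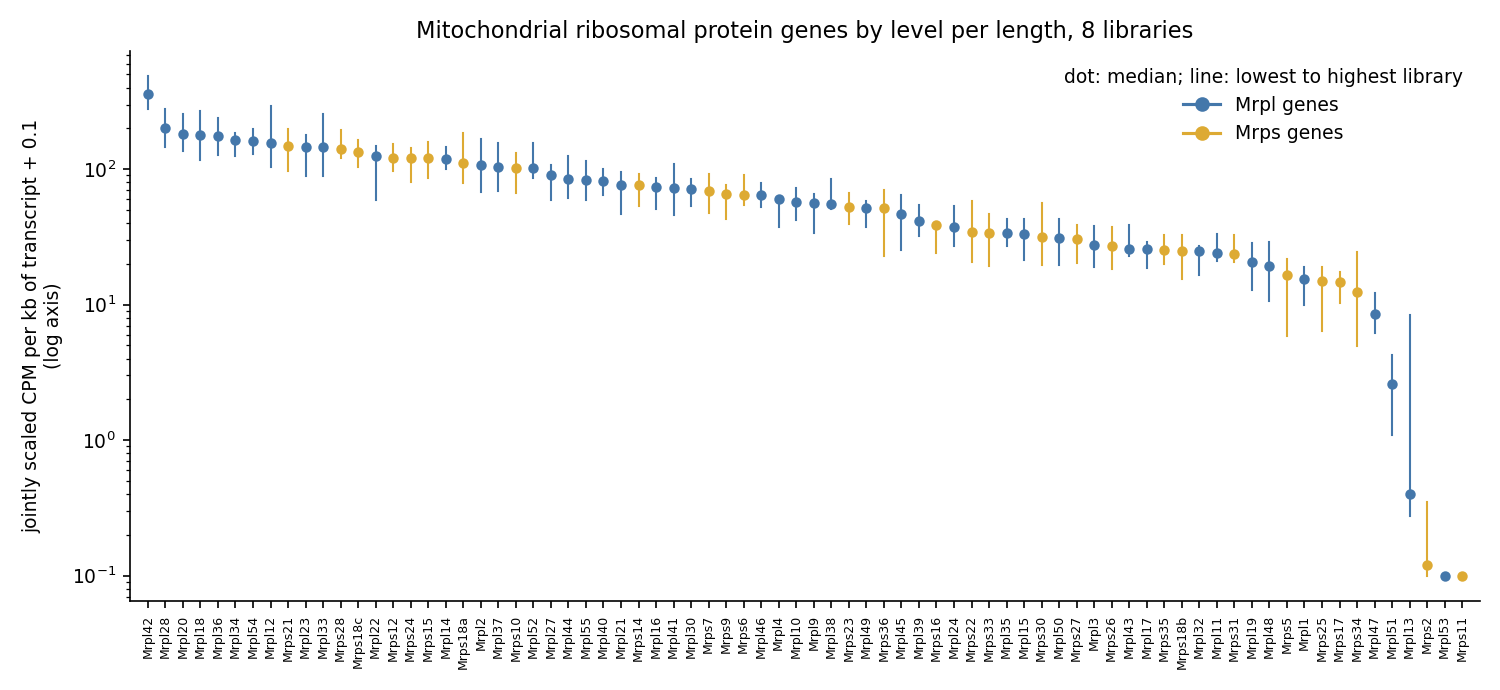
Jointly scaled CPM per kilobase of the longest coding transcript (log axis, with 0.1 added so that values of 0 can be drawn) for the 76 members, ordered by the median over 8 libraries; the dot is the median, the line runs from the lowest to the highest library, and colour marks Mrpl and Mrps genes. Mrpl42 stands first at 362, and the 4 members at the right end lie at or near 0.

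The first comparison asks whether loss of Ripk3 changed these genes in LSK cells. Of 73 members tested, 2 rose in Ripk3-KO and 0 fell by limma with Benjamini-Hochberg adjusted p under 0.05, against 2.16% of all 16817 genes called (0.892% higher and 1.27% lower). One of the 2, Mrpl13, passed the filter on low values only through the Ripk3-KO LSK libraries in which it is high, so that it had to differ. The median member moved by -0.03 on the log2 scale, next to -0.01 over all genes, with 36 members above 0 and 37 below. Both Ripk3-KO libraries were above both WT libraries for 15 members and below them for 16, where the shares over all genes are 21.4% and 23.2%. The members were thus split about evenly in direction under the main settings. Among genes with a mean of at least 5 the all-gene median was 0.09, and relative to it the members' median was -0.13. With quantile normalization the members' median was -0.12, with 42 members lower and 31 higher. In RNA from sorted pools a changed mixture of cells and a changed level per cell cannot be told apart, here and in all comparisons below.

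Mrpl33, a small large-subunit protein with the bacterial counterpart L33, stood at 48.3 and 63.3 scaled CPM in the WT LSK libraries and at 97.8 and 139 in the Ripk3-KO LSK libraries. Both Ripk3-KO libraries were above both WT ones. The log2 difference was 1.06 ± 0.26 (SE, n = 2 per group, limma adjusted p = 0.0327). In LK cells the same gene stood at 77.7 and 59.8 in WT and at 62.8 and 55.8 in Ripk3-KO, where the groups overlap. It lies at chr5:31596935-31664384 (GRCm38, GENCODE M21) and shares no exonic bases with another coding gene there.

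Mrpl13 stood at 0.298 and 0.622 scaled CPM in WT LSK, which is 3 and 6 reads, and at 4.26 and 11.6 in Ripk3-KO LSK, which is 53 and 119 reads. The LK libraries held 3 to 5 reads each. The log2 difference of value + 1 in LSK cells was 2.49 ± 0.62 (SE, n = 2 per group, limma adjusted p = 0.0391). Of its exonic bases 20.4% are shared with Mtbp on the opposite strand, which ranged from 20.5 to 30.6 over the 8 libraries and did not pass the test in LSK cells (log2 difference 0.14, limma adjusted p = 0.867).

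The other large positive differences in LSK cells did not pass the test. They belong to Mrps34 (5.06 and 13.1 in WT, 25.1 and 18.3 in Ripk3-KO, log2 difference 1.28), Mrpl51 (3.87 and 7.36 against 10.4 and 16.3, 1.14), Mrpl24 (47.9 and 41.4 against 71.6 and 81.8, 0.77) and Mrps25 (43.9 and 81.1 against 81.6 and 93.0, 0.54). None of the 4 had overlapping groups, though for Mrps25 they nearly touched, and 58.2% of its exonic bases are shared with Nr2c2 on the opposite strand. Nr2c2 ranged from 0.685 to 5.83 over the 8 libraries and was lower in Ripk3-KO LSK (log2 difference -1.16, limma adjusted p = 0.325). Among the large negative ones, Mrps5, which lines the mRNA entry of the small subunit, was 81.2 and 63.6 in WT against 51.5 and 29.3 in Ripk3-KO (log2 difference -0.87 ± 0.28, limma adjusted p = 0.106). Mrps36, the oxoglutarate dehydrogenase protein, was 30.5 and 39.5 against 18 and 20.5 (-0.82 ± 0.31, limma adjusted p = 0.174). Next came Mrpl23 (-0.67), Mrps21 (-0.50), Mrps16 (-0.46) and Mrps26 (-0.43), each with both Ripk3-KO libraries below both WT libraries. An unadjusted p under 0.05 was given to 9 of the 73 members (12.3%), 5 of them higher, and to 17.9% of all genes tested.

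The 2 calls are not firm. The quasi-likelihood test of edgeR on the recovered reads called 0 members (Mrpl33 adjusted p = 0.054, Mrpl13 adjusted p = 0.188), 10 had an unadjusted p under 0.05 there, and leaving out either WT LSK library or Ripk3-KO LSK replicate 2 left 0 calls, while without Ripk3-KO LSK replicate 1 only Mrpl13 was called. An exact permutation test of 2 against 2 libraries cannot go below p = 0.333, so that single genes rest on the model across all genes.

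**Figure D2:**
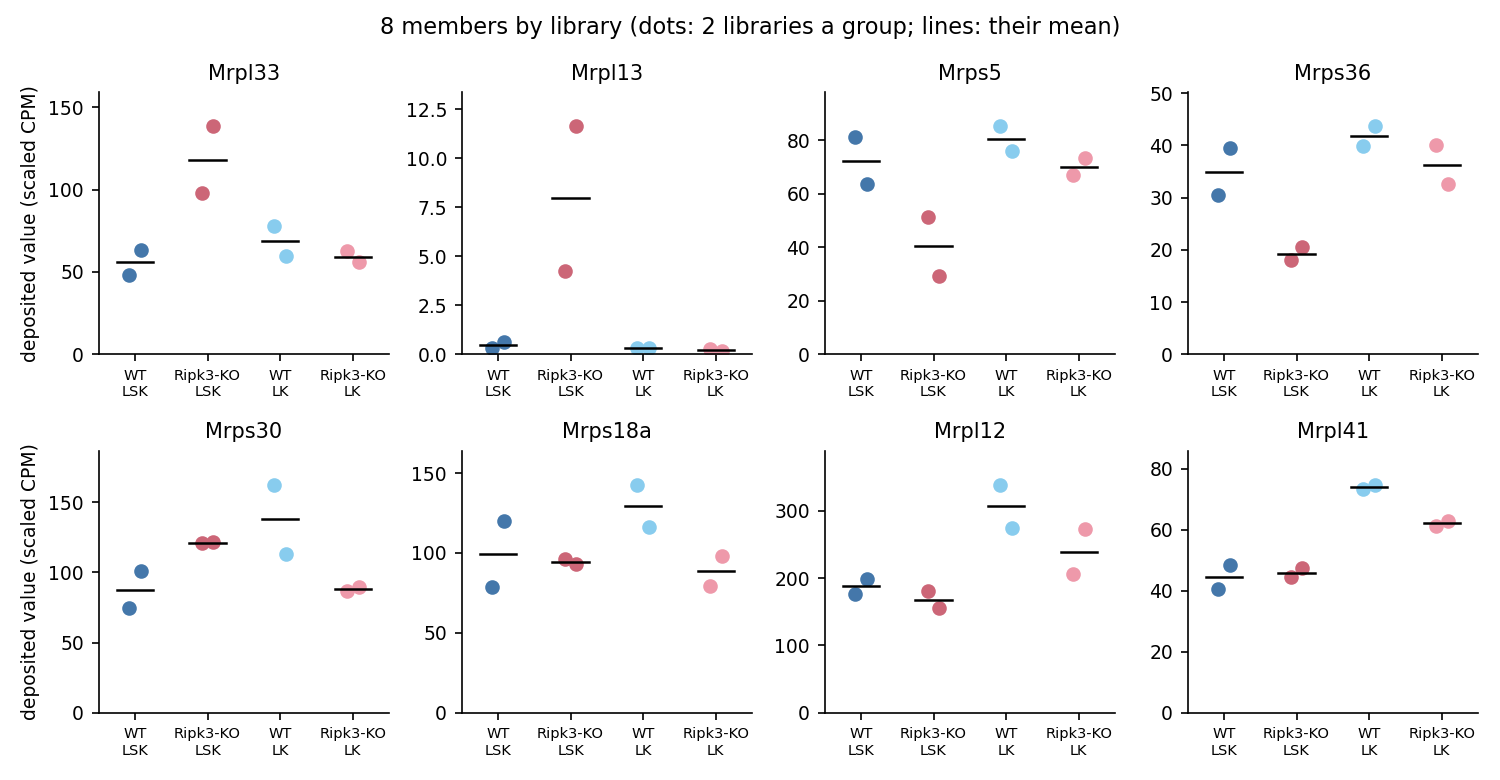
Deposited values (scaled CPM, linear axes from 0, a separate axis per gene) of 8 members in the 8 libraries; dots are the 2 libraries of a group and lines their mean. Mrpl33 and Mrpl13 are higher in both Ripk3-KO LSK libraries, Mrps5 and Mrps36 lower, and Mrps30 moves up in LSK and down in LK cells.

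Set beside the mitochondrial genes, the cytosolic ribosomal protein genes in the same LSK libraries were mostly lower in Ripk3-KO, with 25 of 77 called lower, 1 called higher and a median log2 difference of -0.50. Nuclear OXPHOS subunit genes, most of which work beside the products of mitochondrial ribosomes, had a median of 0.02 with 0 of 79 called higher and 1 lower. Large-subunit members by structure had a median of -0.04 and small-subunit members of 0.15. Members listed with a bacterial counterpart had one of -0.09 against 0.10 for those listed without, among which Mrps18a and Mrps18b were counted. Whether these medians differ was not tested.

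In LK cells the picture differed in shape. No member of the 72 tested passed the test (0 called by limma, against 0.473% of 13949 genes in either direction and 0.373% lower, with 4, or 5.56%, at an unadjusted p under 0.05 next to 6.56% of all genes, and 0 called by edgeR and DESeq2), but the members leaned one way. Of the 72 members, 64 had a lower mean in Ripk3-KO, the median log2 difference was -0.21 next to 0.01 over all genes, and all 27 Mrps genes tested were on the lower side. Both Ripk3-KO LK libraries were below both WT LK libraries for 40 members, where the share over all genes is 19.9%, and above them for 1 member, where it is 20.1%.

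The lean was small for any 1 gene. Mrps30, a large-subunit protein by structure, stood at 163 and 113 scaled CPM in the WT LK libraries and at 86.7 and 89.7 in the Ripk3-KO LK libraries. Both Ripk3-KO libraries were lower, WT LK replicate 1 was the highest, and the log2 difference of -0.62 ± 0.23 (SE, n = 2 per group) had a limma adjusted p of 0.485. Mrps18a, also in the large subunit, was 143 and 116 against 79.6 and 98.1 (-0.54 ± 0.24). Mrps28 was 129 and 135 against 83.3 and 106 (-0.49 ± 0.21). The next were Mrpl4 at the exit tunnel (-0.46), Mrpl20 (-0.44) and Mrpl38 (-0.43). For all 6 both Ripk3-KO LK libraries were below both WT LK libraries.

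Few members went the other way in LK cells. Mrpl19 was 102 and 111 in WT against 124 and 125 in Ripk3-KO (log2 difference 0.22), the 1 member with both Ripk3-KO libraries above both WT libraries. Mrpl50 (0.18), Mrpl44 (0.11), Mrpl10 (0.05), Mrpl32 (0.03) and Mrpl51 (0.01) had overlapping groups.

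OXPHOS subunit genes leaned with the mitochondrial ribosome in LK cells, with 73 of 76 on the lower side, a median of -0.19 and 49 with both Ripk3-KO libraries below. All 7 mitoribosomal protein genes outside the naming rule (Dap3, Chchd1, Aurkaip1, Ptcd3, Gadd45gip1, Mrp63 and Ict1) were lower too, with a median of -0.31 and 0 called. Cytosolic ribosomal protein genes had a median of -0.06, with 16 of 75 below without overlap and 0 called. Of the LK markers, 7 of 8 were on the lower side in Ripk3-KO LK cells, with 0 called and a median of -0.39. Of the cycling genes, 7 of 8 were on the higher side with 0 called, and their summed level was 1460 to 1490 jointly scaled CPM in WT LK and 1673 to 1703 in Ripk3-KO LK. The part of either in the lean was not tested. Leaving out 1 library at a time kept between 57 and 66 of the 72 members on the lower side, and the median was nearest to 0 without WT LK replicate 1 (-0.13).

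**Figure D3:**
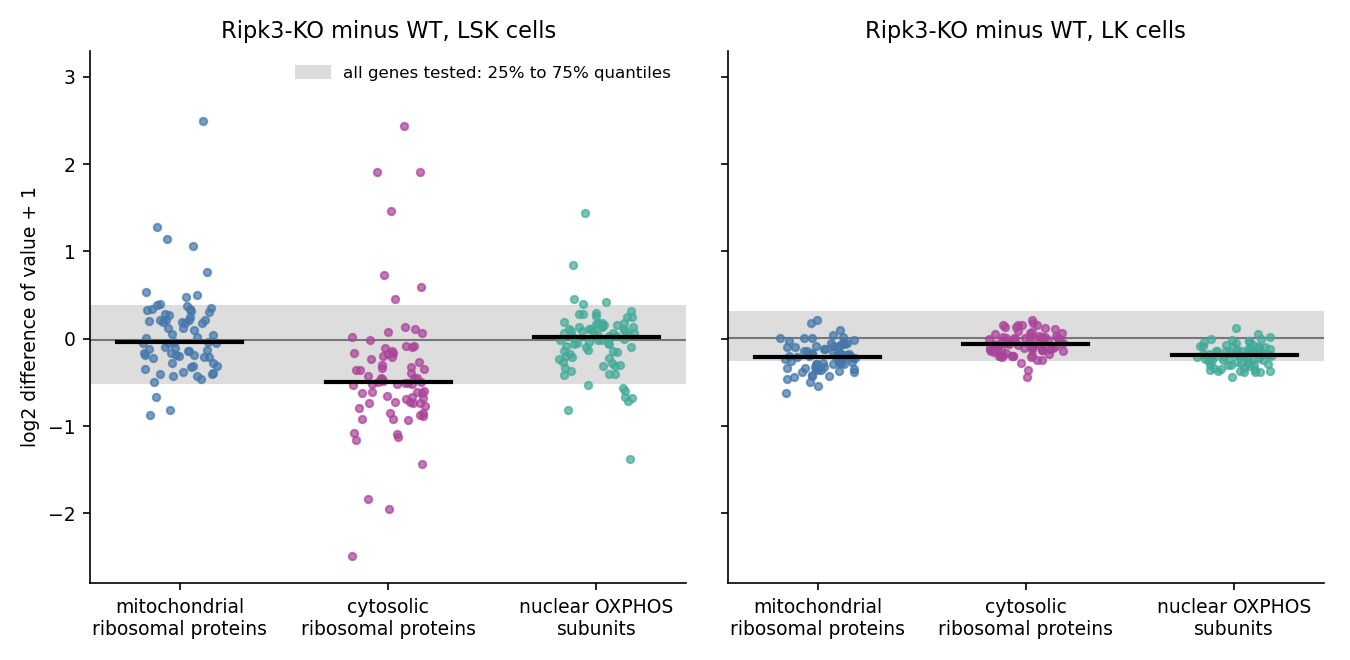
Log2 difference of deposited value + 1 between Ripk3-KO and WT in LSK cells (left) and LK cells (right) for each tested gene of 3 lists; black bars are list medians, the grey line is the median and the grey band the quartiles of all genes tested. In LSK cells the cytosolic ribosomal median lies at -0.50 and the mitochondrial one at -0.03, and in LK cells the mitochondrial ribosomal and OXPHOS medians lie at -0.21 and -0.19.

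Whether the effect of genotype differs between the populations was tested as an interaction, for which 0 of 73 members passed (limma, against 0.358% of 15901 genes called, with 7, or 9.59%, at an unadjusted p under 0.05 next to 10.1% of all genes, and 0 by edgeR and DESeq2). The median member was 0.25 higher in its LSK difference than in its LK difference, against 0.00 over all genes, and 52 of 73 members were on that side. Among genes with a mean of at least 5 the all-gene median was itself 0.12, and the members exceeded it by 0.13. Mrpl13 (2.61), Mrps34 (1.70), Mrpl33 (1.26, limma adjusted p = 0.207), Mrpl51 (1.12) and Mrps30 (1.10 ± 0.33, limma adjusted p = 0.223) had the largest values, the first of them in a gene with 3 to 6 reads in each library outside Ripk3-KO LSK, the group that let it pass the filter. These differences share their libraries with the genotype comparisons above and add no independent evidence. Mrps30 stood at 74.4 and 101 in WT LSK and at 121 and 121 in Ripk3-KO LSK, so that its groups were apart in opposite directions in the 2 populations.

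The second axis of the study is LSK against LK cells, computed on CPM scaled jointly over the 8 libraries. Members were lower in LSK than in LK cells of WT mice: 15 of 72 fell and 0 rose, with a median log2 difference of -0.48 next to 0.08 over all genes. The share called lower among all 15950 genes is 14.8% (9.16% higher, 23.9% in both directions), so that the calls alone do not set the members far from other genes, while 60 of the 72 members had both LSK libraries below both LK libraries, where the share over all genes is 31.2%, and 1 member had them above, where it is 32.8%. In Ripk3-KO mice 11 of 73 fell and 1, Mrpl13, rose, against 12.2% of 15237 genes called lower and 7.95% called higher (20.2% in both directions), and Mrpl13 passed the filter only through the Ripk3-KO LSK libraries. There the median was -0.29 next to 0.00, and 43 members were below without overlap, against 30.1%, and 10 above, against 27.5%.

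Both genotypes, whose libraries are separate, shared 7 members called lower in LSK: Mrpl12, Mrpl18, Mrpl36, Mrpl37, Mrpl41, Mrpl48 and Mrps22. They are 46.7% of the 15 called in WT and 63.6% of the 11 called in Ripk3-KO, and over all genes the shares were higher, at 55.8% of 2353 and 70.5% of 1860. The Ripk3-KO calls of all these 7 were lost without LSK replicate 2 and also without LK replicate 2. Without 1 library the Ripk3-KO log2 differences ran from -1.08 to -0.66 for Mrpl12, -0.82 to -0.72 for Mrpl41 and -1.03 to -0.87 for Mrps22. Mrpl12, the stalk protein that recruits translation factors and also binds the mitochondrial RNA polymerase, stood at 155 and 175 jointly scaled CPM in WT LSK and at 386 and 310 in WT LK. The log2 difference was -1.07 ± 0.20 (SE, n = 2 per group, limma adjusted p = 0.000485). In Ripk3-KO it stood at 160 and 136 in LSK and at 234 and 312 in LK (-0.87 ± 0.20, limma adjusted p = 0.00282).

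Mrpl41, a large-subunit protein found only in mitochondria, was 35.6 and 42.5 in WT LSK against 83.6 and 84.4 in WT LK (-1.09 ± 0.26, limma adjusted p = 0.00369). In Ripk3-KO it was 39.3 and 41.5 against 69.6 and 72.2 (-0.80 ± 0.26, limma adjusted p = 0.0305). Mrps22, a small-subunit protein, was 35.7 and 25.6 against 69.3 and 46.7 in WT (-0.89) and 24.6 and 28.8 against 55 and 54.4 in Ripk3-KO (-1.01). For all 3 genes the LSK libraries lay below the LK libraries in each genotype, with no overlap.

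Called in WT alone among the named members were Mrps30 (-1.01), Mrps25 (-1.0), Mrpl45 at the exit tunnel (-0.92), Mrpl2 in the peptidyl transferase centre (-0.90) and Mrps18a (-0.77). Called in Ripk3-KO alone were, beside Mrpl13, Mrps36 (16 and 18 in LSK against 45.5 and 37.4 in LK, -1.24), Mrps5 (45.7 and 25.7 against 76.1 and 84.2, -1.20), Mrpl19 (75.7 and 63.4 against 140 and 143, -1.02) and Mrpl23 (65.7 and 67.8 against 103 and 111, -0.68). Being called in one genotype and not the other does not show that the genotypes differ, since for none of these members did the interaction pass. Mrpl52, the member nearest to Ripk3, 1.36 Mb away on chromosome 14, had differences of 0.06 in WT and 0.64 in Ripk3-KO, on the other side from the medians of the set, and neither was called.

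**Figure D4:**
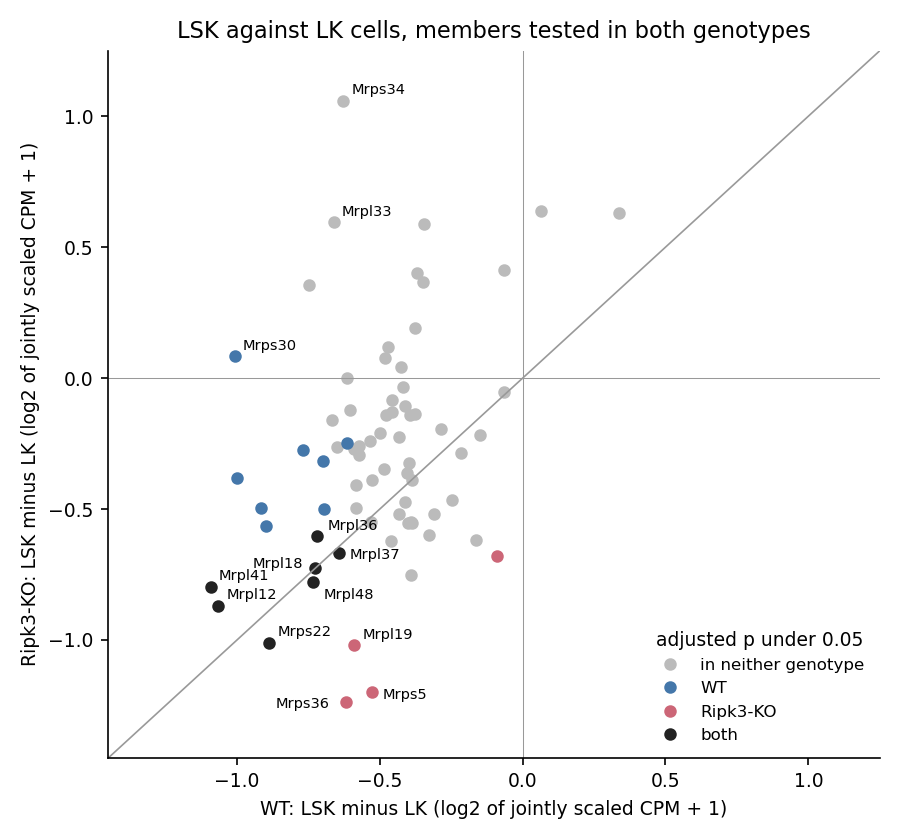
Log2 difference of jointly scaled CPM + 1 between LSK and LK cells in WT (x axis) and Ripk3-KO (y axis) for the 72 members tested in both; colour marks the genotype in which the limma adjusted p was under 0.05, and the diagonal is equal difference. Most members lie left of 0, the 7 called in both are at the lower left, and Mrps30 and Mrps34 lie far above the diagonal.

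The size of this population difference depends on the scaling between the populations. With the values as deposited, which were scaled within each population, the all-gene medians moved to 0.41 in WT and 0.34 in Ripk3-KO, and relative to them the members' medians were -0.53 and -0.25, next to -0.56 and -0.29 with joint scaling. Calls under that scaling were 0 higher and 2 lower in WT, and 7 higher and 2 lower in Ripk3-KO. With quantile normalization the members' medians were -0.08 in WT, with 0 called, and -0.04 in Ripk3-KO, with 3 called higher and 5 lower. Among genes with a mean of at least 5 the all-gene median was itself -0.24 in WT and -0.11 in Ripk3-KO. The counts also rest on single libraries: without WT LK replicate 1, 2 members were called in WT (Mrpl12 and Mrpl41), and without WT LSK replicate 1, 7. In Ripk3-KO, 7 and 3 were called without LSK replicate 1 and 2, and 5 and 2 without LK replicate 1 and 2.

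Cycling genes were lower in LSK cells as well, with 6 of 8 called lower in WT and 7 of 8 in Ripk3-KO, and summed levels of 816 to 933 jointly scaled CPM in WT LSK and 890 to 967 in Ripk3-KO LSK, below the LK libraries given above. Their part in the difference of the members was not tested.

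The 3 Mrps18 genes encode related proteins at different places: Mrps18c, nearest to bacterial S18, stood at 88 and 88.1 jointly scaled CPM in WT LSK against 134 and 116 in WT LK (log2 difference -0.50). Mrps18b was at 16.6 and 22.5 against 35.2 and 28 (-0.67), and Mrps18a, the 1 of the 3 called, at 69.2 and 105 against 163 and 131 (-0.77, limma adjusted p = 0.0231). In Ripk3-KO the 3 differences were -0.21, -0.16 and -0.28, with 0 called. Mrps12, the decoding-centre protein, was higher in Ripk3-KO than in WT in LSK cells (WT 98.1 and 115, Ripk3-KO 116 and 131 scaled CPM, log2 difference 0.21) and lower in LK cells (WT 118 and 112, Ripk3-KO 84.3 and 96.4, -0.35), and neither passed the test.

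As a sum over the set, members took 0.641% and 0.726% of all reads in WT LSK, 0.652% and 0.681% in Ripk3-KO LSK, 0.735% and 0.724% in WT LK and 0.678% and 0.654% in Ripk3-KO LK. By genotype the groups overlap in LSK, and in LK both Ripk3-KO libraries were lower. Between LSK and LK they overlap in both genotypes, so that the lower level of the set in LSK cells was not seen without overlap in this share of all reads. For each member read there were 6.76 and 7.15 cytosolic ribosomal protein reads in WT LSK, 4.80 and 5.24 in Ripk3-KO LSK, 4.20 and 5.35 in WT LK and 5.14 and 5.23 in Ripk3-KO LK. Both WT LSK libraries were above the other 6, which lay between 4.20 and 5.35. OXPHOS reads per member read were 3.18 to 3.26 in the 4 LSK libraries and 3.40 to 3.51 in the 4 LK libraries, with no overlap between the populations.

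**Figure D5:**
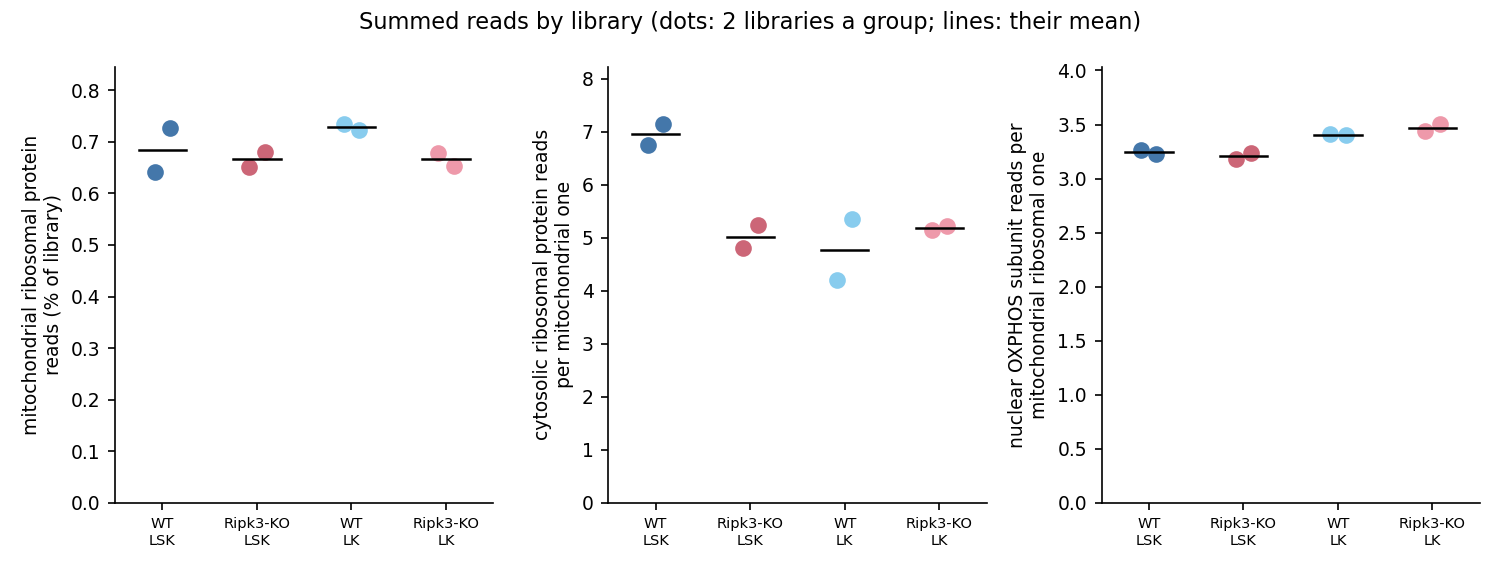
Summed reads by library, as the percent of all reads that fell in the 76 members (left), cytosolic ribosomal protein reads per member read (middle) and nuclear OXPHOS subunit reads per member read (right), with axes from 0; dots are the 2 libraries of a group and lines their mean. The middle panel has both WT LSK libraries at 6.76 and 7.15 and the other 6 at or under 5.35.

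Genes that serve the mitochondrial ribosome were followed as lists. By genotype 0 genes were called in any of them, among 11 translation factors (Tufm among them), 18 assembly factors and 11 genes of mitochondrial transcription and RNA handling tested in LSK cells, with medians of 0.22, 0.08 and 0.15. In LK cells their medians were -0.01, -0.18 and -0.12. Between the populations the last list, which includes Tfam and Polrmt, had 5 of 10 genes lower in LSK cells of WT mice (median -0.87) and 6 of 11 in Ripk3-KO mice (-0.60), with 0 higher. Translation factors were lower in 2 of 11 and 3 of 11 genes, assembly factors in 5 of 18 and 2 of 18, and the 7 proteins with other symbols in 1 and 1. The shares called lower over all genes were 14.8% in WT and 12.2% in Ripk3-KO. Near these shares were the translation factors in WT (18.2%), the assembly factors in Ripk3-KO (11.1%) and the proteins with other symbols (14.3% in each genotype). OXPHOS subunit genes fell in 29 of 80 and 21 of 77, with medians of -0.48 and -0.33. Cytosolic ribosomal protein genes had a median of 0.07 in WT, with 1 of 75 lower, and of -0.32 in Ripk3-KO, with 25 of 77 lower.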

How the data were processed

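The 8 RNA-seq libraries were analysed from the tables the authors deposited, and no reads were aligned. The submitters' processing notes name TopHat and mm9, and the gene annotation and counting tool are not given in the sources used here. The heading of the deposited signal values says FPKM, but 100% of the values above 0 in each library were whole multiples (within 0.01) of 1 step per library, and the steps equal TMM-scaled CPM within each population with no division by length. Reads were recovered from the steps, and CPM was rescaled with TMM over the 8 libraries for LSK against LK.

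The main test was two-sided limma 3.58.1 (trend) on log2(value + 1) with 4 group means over 8 libraries, keeping genes whose mean in the libraries compared reached 1, adjusted by Benjamini-Hochberg over all genes tested. The plan expected TMM-scaled reads per gene despite the FPKM heading, and was kept. It was tested on simulated data. Nothing states that the 2 libraries of a group are separate animals, so p-values measure the spread between these libraries.

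Members, lists and named genes were chosen with earlier results of these data known. Named were members called by genotype, the 6 largest differences in each direction by genotype, the 6 largest called between populations, Mrps18a, Mrps18b, Mrps18c, Mrpl12, Mrps12, Mrps36, Mrps30, members within 10 Mb of Ripk3, and the 4 highest and 4 lowest per kilobase. Members named outside this rule (Mrpl14, Mrpl36, Mrpl37, Mrpl43, Mrpl48, Mrps6 and Mrps17) were chosen after their values were seen. Mrps28, counted here without a bacterial counterpart, is a distant relative of bacterial S1. Mrps18a and Mrps18b were counted there too, although they are related to Mrps18c, which was counted with a counterpart.

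Positions and lengths came by symbol from GENCODE M21 (GRCm38), another build than mm9, and pseudogenes from BLAST 2.17.0 (at least 90% identity over 200 bases). Alternatives used edgeR 4.0.16 and DESeq2 1.42.0 on R 4.3.3 with the recovered reads, a pseudocount of 0.1, no filter, a mean of at least 5, quantile normalization, a replicate block, separate fits, the deposited scaling and leaving out each library.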

Additional observations from a re-analysis of the deposited data

Results flagged for a closer look

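Among members, 3 named genes had both Ripk3-KO libraries above WT in LSK cells and both below WT in LK cells. The log2 difference between the 2 effects was 0.56 for Mrps12, 1.10 for Mrps30 and 1.70 for Mrps34, and by the interaction test of limma over all genes the adjusted p-values were 0.542, 0.223 and 0.431. Mrpl14 and Mrps17, outside the naming rule, had the same layout, which makes 5 of 72 members (6.94%) next to 3.89% of the 13746 genes tested in both populations. In the comparison list of cytosolic ribosomal proteins, 3 genes passed that test, Rpl21 (-2.39), Rpl29 (-1.64) and Rpl41 (-1.98), with a difference from WT that was more negative in LSK than in LK cells.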

How the results depend on the processing

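In LK cells and for the interaction, 0 members were called under every alternative run. In LSK cells the main count of 2 became 1 with a pseudocount of 0.1, with a mean of at least 5 and with the replicate block, 0 with no filter, with edgeR under either set of factors and with separate fits, and 0 to 1 when 1 library was left out, while DESeq2 gave 2 and quantile normalization 3. In WT LSK against LK the count of 15 became 9 with no filter, 8 with edgeR and DESeq2 size factors, 0 with quantile normalization and 2 with the deposited scaling, and 2 to 16 without 1 library. In Ripk3-KO the 12 became 6 with the replicate block and 2 to 7 without 1 library. The 6 is not a count for the same difference, since that block compares the populations at the replicate 1 level, as given below. The cause of the other changes was not tested.

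The median interaction of 0.25 was 0.082 with quantile normalization. Between populations the medians moved to -0.083 (WT) and -0.036 (Ripk3-KO) with quantile normalization and to -0.11 and 0.083 with the deposited scaling. Without 1 library the medians ran from -0.12 to 0.13 (LSK genotype), -0.26 to -0.13 (LK genotype), 0.12 to 0.29 (interaction), -0.65 to -0.36 (WT populations) and -0.34 to -0.24 (Ripk3-KO populations). Per kilobase of coding sequence the median member was 136 in place of 56.6. The sign turned for small LK differences, for Mrpl51 with edgeR (-0.042 and -0.050), DESeq2 (-0.051), quantile normalization (-0.025) and without 1 library (-0.38 to 0.40), and without 1 library for Mrpl10 (-0.045 to 0.14), Mrpl32 (-0.047 to 0.10), Mrpl44 (-0.15 to 0.36) and Mrpl50 (-0.054 to 0.41).

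Deviations of libraries that share a replicate number correlated at -0.01 (LSK) and -0.09 (LK) between genotypes. Between populations they correlated at -0.02 (WT) and -0.14 (Ripk3-KO). Same-numbered libraries thus did not deviate in the same direction. Whether libraries came from the same mice under other numbers cannot be told from these values. With a block on these numbers within each population the calls were 1, 0 and 0 for LSK, LK and interaction. Between populations that block compares the fitted level of replicate 1 and not the group means. Its 11 and 6 calls there (medians -0.62 and -0.36) are therefore not for the same difference as the main result. Blocks across populations, chosen after seeing the data, gave 10 in WT and 8 in Ripk3-KO, and 14 with the Ripk3-KO numbers crossed. Over all genes, the alternatives that kept all 8 libraries gave from 195 to 613 calls (LSK, 363 as reported), 9 to 177 (LK, 66) and 3 to 155 (interaction, 57). Between populations they gave 1918 to 3731 in WT, all fewer than the 3814 reported, and 1723 to 3380 in Ripk3-KO (3072 reported). Leaving out 1 library could lower the count further in LSK cells and in both population comparisons. Depth limits Mrpl13, which had 3 to 6 reads in 6 libraries.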
